A study of Arabidopsis thaliana with 28 samples.

Results

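Chromatin accessibility was examined at 41 nuclear genes of Arabidopsis thaliana that encode light-harvesting proteins and subunits of photosystem I and photosystem II, out of 27444 protein-coding genes on the 5 nuclear chromosomes. The genes were chosen by function and locus name, not by a cut on any measured value, but with earlier results of these data known. They comprise 14 LHCB genes (antenna of photosystem II), 6 LHCA genes (antenna of photosystem I), 12 PSA genes (photosystem I subunits) and 9 PSB genes (photosystem II subunits). Light-harvesting proteins bind chlorophyll and pass absorbed light energy to the photosystems of the chloroplast, whose subunits are encoded partly in the nucleus and partly in the plastid. The nuclear genes are well known for strong expression in green tissue and for their control by light. Cytokinin, a plant hormone, is known to promote greening and chloroplast development, and its signal reaches target genes through transcription factors named type-B regulators, among them those missing in the triple mutant used here.

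The study used ATAC-seq, in which Tn5 transposase inserts adapters into accessible DNA, to compare cytokinin-treated with untreated tissue. The 16 libraries were from WT (Col-0) shoots with BA (2 libraries) or vehicle (2), arr1,10,12 triple mutant roots with BA (2) or vehicle (2), and WT (Col-0) roots with BA (4) or vehicle (4). BA (benzyladenine, a synthetic cytokinin) was given at 5 µM for 45 min in MS liquid medium, and vehicle for the same time is called control. The nuclei came from whole root or shoot tissue, were stained with DAPI and were sorted by fluorescence, so cell types were mixed. The series text calls the libraries biological replicates, and it holds no arr1,10,12 shoots. Plant age is not given in the labels.

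The measure was the covered percent: the share of a gene's body with 1 kb on either side (its window) that lay under the authors' peaks in a library. It counts covered bases, not signal height, because the peak lists give chromosome, start and end only, and the depth of each library is therefore unknown. Differences are in percentage points. In bulk tissue, a peak present in fewer cells of a type and a peak that is weaker in each cell cannot be told apart. The lists held 30778 to 36358 peaks per library. They covered 19.7 to 23.1 Mb in shoots, 23.7 to 27.2 Mb in arr1,10,12 roots and 24.1 to 28.7 Mb in WT roots, so that the mean covered percent over all genes tested was 22.7 to 27.2% in shoots, 27.6 to 32.5% in arr1,10,12 roots and 28.3 to 34.4% in WT roots. The tissue labels were checked with identity genes. RHD6, a root hair regulator, had no peak in any shoot library. Of 14 root identity genes, 8 were lower in shoots and none higher, against 37.2% lower and 10.7% higher over all genes tested. Of 7 broadly used genes, 4 were lower and none higher, so this count alone does not mark root tissue. Of 8 leaf identity genes tested, 4 were higher in shoots (among them YAB1 and YAB3, by 26.6 and 22.9 points), 1 was lower (MUTE) and 3 were not called. Among 10 type-A response regulators, early cytokinin targets, 1 passed the test for BA in WT shoots and 1 in WT roots, and 3 were lower in arr1,10,12 than in WT roots. Libraries numbered 1 stood apart among the WT roots: the mean over the 14 LHCB genes was 30.8% (BA) and 32.2% (control) there, against 22.2 to 25.3% in the other 6 root libraries. These 2 libraries also had the most peaks of the 16 (35228 and 36358). Their means over chlorophyll synthesis genes, 27.0 and 30.5%, and over other light-harvesting-like and photosystem II genes, 35.9 and 41.1%, also lay above those of the other 6 WT root libraries (23.7 to 26.98% and 32.0 to 35.5%). Their means over the Calvin cycle genes, 16.6 and 16.3%, and over the leaf identity genes, 13.7 and 15.0%, lay within the range of the others (14.7 to 17.2% and 12.6 to 17.5%), and RBCS1B, RBCS2B and RBCS3B had no peak in them. Counts without both libraries are given below, with values for some of the genes they touch.

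In shoots the photosynthesis genes were more widely covered by peaks than in roots, while the typical gene was less so. Of the 41 genes, 27 were higher in WT shoots than in WT roots (limma, Benjamini-Hochberg adjusted p under 0.05), 2 were lower and 12 were not called. Over all 24610 genes tested, 10.7% were called higher and 37.2% lower. The median difference was 14.0 points over the 41 genes, against -3.49 points over all genes tested. By subgroup, 10 LHCB genes were higher and 2 lower, 4 LHCA genes were higher, 8 PSA genes were higher and 5 PSB genes were higher. All 4 shoot values lay above all 8 WT root values for 15 of the 41 genes (6.63% of all genes tested) and below them for 2 (27.0%). When each library was centred on its own mean over all genes, 32 of the 41 genes were higher and 1 was lower, and over all genes the split turned to 31.3% higher and 20.7% lower, with a median of 1.79 points.

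**Figure D1:**
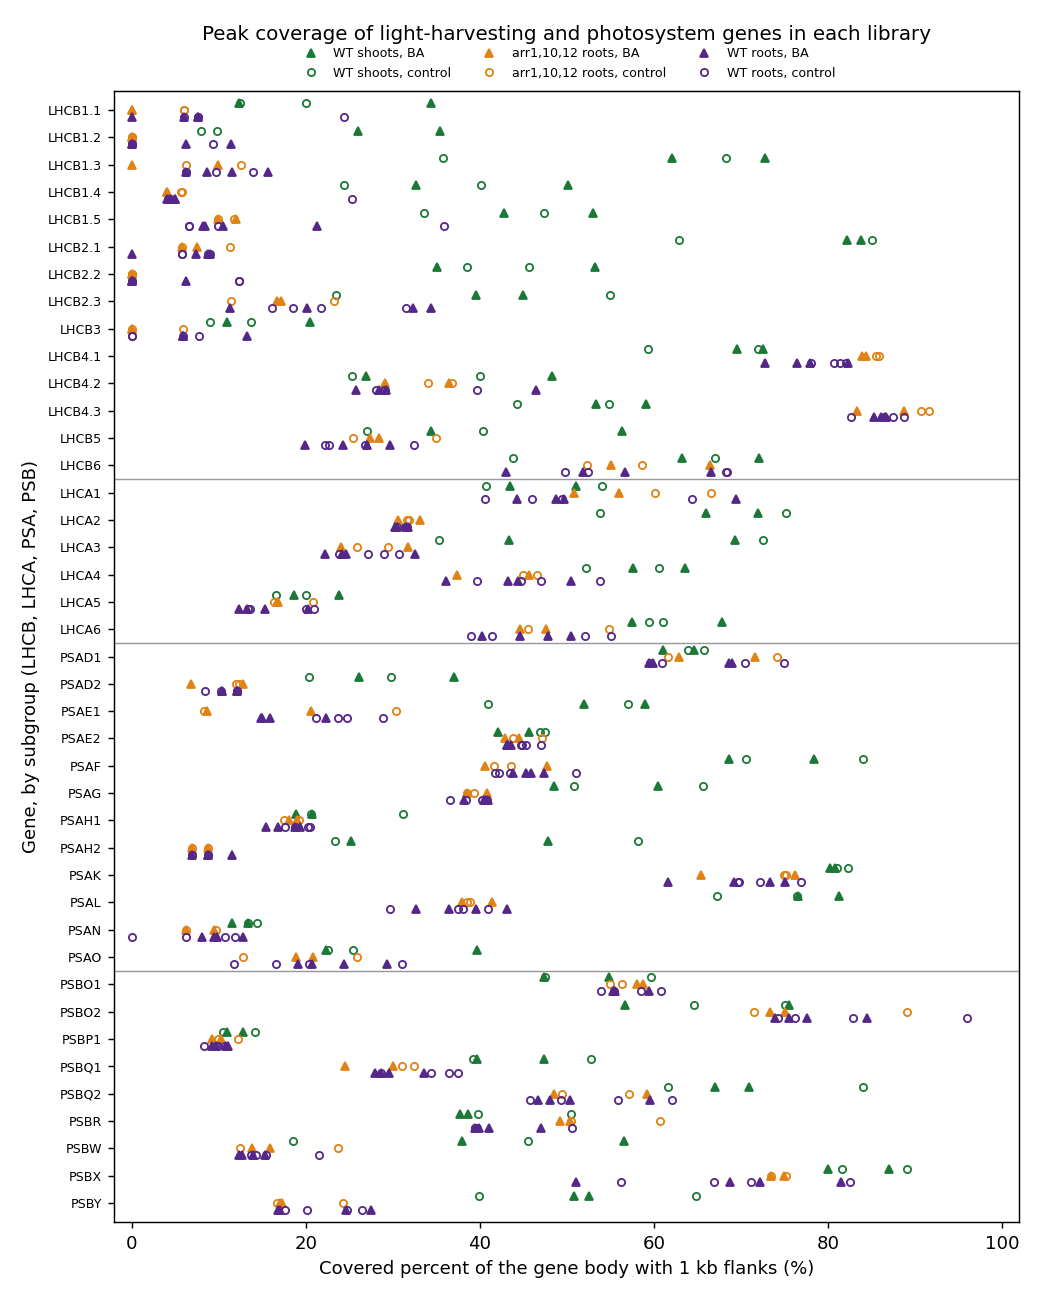
Covered percent (x axis, percent of the gene body with 1 kb flanks) of each of the 41 genes (y axis) in the 16 libraries, with 1 point per library. Triangles are BA and circles control libraries, green marks WT shoots, orange arr1,10,12 roots and violet WT roots. The shoot points of LHCB2.1 lie at 62.9 to 85.0%, and its WT root points at 0 to 8.99%.

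The largest differences were found among the genes of the major antenna of photosystem II, the trimeric light-harvesting complex II, which is built from the products of the LHCB1 and LHCB2 families and of LHCB3 (AT5G54270). LHCB2.1 (AT2G05100) had 83.9 and 82.2% in the BA shoots and 85.0 and 62.9% in the control shoots, against 0 to 8.99% (median 8.02%) across the 8 WT roots. Every shoot library was far above every root library. The means were 78.5 ± 10.5% in shoots and 6.78 ± 3.07% in WT roots (SD, n = 4 and 8), and the difference passed the test (71.7 points, SE 3.29, limma adjusted p = 4.29e-09). Its neighbour in the family, LHCB2.2 (AT2G05070), had 53.3 and 35.1% in the BA shoots and 45.7 and 38.5% in the control shoots, against 0 to 12.3% (median 0%) in WT roots, where 5 of 8 libraries had no peak in the window. The groups again did not overlap (39.3 points, SE 3.43, limma adjusted p = 1.28e-06). LHCB2.3 (AT3G27690) was covered in every library, at 45.0, 39.5, 54.9 and 23.5% in shoots and 11.3 to 34.3% (median 20.9%) in WT roots. Here the groups overlapped, and the call (17.5 points, SE 5.79, limma adjusted p = 0.0249) was lost when same-numbered BA and control libraries were paired (adjusted p = 0.0761), with gene bodies alone (0.0853), with control or BA libraries alone (0.117 and 0.131) and without shoot BA library 1 (0.0855) or shoot control library 1 (0.154).

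LHCB1.1 (AT1G29920), LHCB1.2 (AT1G29910) and LHCB1.3 (AT1G29930) lie side by side on chromosome 1, so the window of LHCB1.1 overlaps those of both neighbours. LHCB1.3 had 72.8 and 62.1% in the BA shoots and 68.3 and 35.8% in the control shoots, against 6.19 to 15.7% (median 9.15%) in WT roots. The groups did not overlap (49.97 points, SE 4.85, limma adjusted p = 3.21e-06). LHCB1.2 had 35.4 and 26.0% in the BA shoots and 9.74 and 8.01% in the control shoots, against 0 to 11.4% (median 0%) in WT roots, where 5 of 8 libraries had no peak. The BA shoots were well above all roots, while the control shoots fell within the root range, and the call (16.4 points, SE 2.54, limma adjusted p = 1.75e-04) was lost with control libraries alone (6.55 points, adjusted p = 0.171). LHCB1.1 had 34.4, 12.3, 19.98 and 12.5% in shoots and 0 to 24.4% (median 7.57%) in WT roots, where control library 1 was highest. Its call (11.5 points, SE 4.09, limma adjusted p = 0.0355) was lost when libraries were paired (0.0933), with gene bodies alone (0.164), with control libraries alone (4.82 points, 0.532) and in 6 of the 12 fits that left out 1 WT library (shoot BA 1 and control 1, root BA 2, and root control 2, 3 and 4, adjusted p = 0.0585 to 0.22). Without both root libraries numbered 1, its call held.

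LHCB1.4 (AT2G34430) and LHCB1.5 (AT2G34420), a second pair of LHCB1 genes whose windows overlap on chromosome 2, were both higher in shoots. LHCB1.4 had 50.2 and 32.6% in the BA shoots and 40.2 and 24.4% in the control shoots, against 4.05 to 25.4% (median 4.41%) in WT roots. Only root control library 1, at 25.4%, reached into the shoot range (29.8 points, SE 4.37, limma adjusted p = 1.14e-04). LHCB1.5 had 53.0 and 42.8% in the BA shoots and 47.4 and 33.6% in the control shoots, against 6.57 to 35.9% (median 9.20%) in WT roots, and again root control library 1 was the highest root, above shoot control library 2 (30.8 points, SE 5.22, limma adjusted p = 3.57e-04). LHCB3, the third kind of trimer subunit, had the lowest mean of the LHCB genes over all 16 libraries (6.53%). It reached 20.4, 10.99, 13.7 and 9.02% in shoots and 0 to 13.3% (median 5.88%) in WT roots, with overlapping groups. The call (7.98 points, SE 2.28, limma adjusted p = 0.0119) was lost with pairing (0.0514), with gene bodies alone (0.0611), with control or BA libraries alone (0.0713 and 0.0855) and without shoot BA library 1 (0.079) or shoot control library 1 (0.0589). Members of the LHCB1 and LHCB2 families are near-identical copies, and how reads that match several copies were placed is not given in the sources used here, so values of single copies are uncertain.

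**Figure D2:**
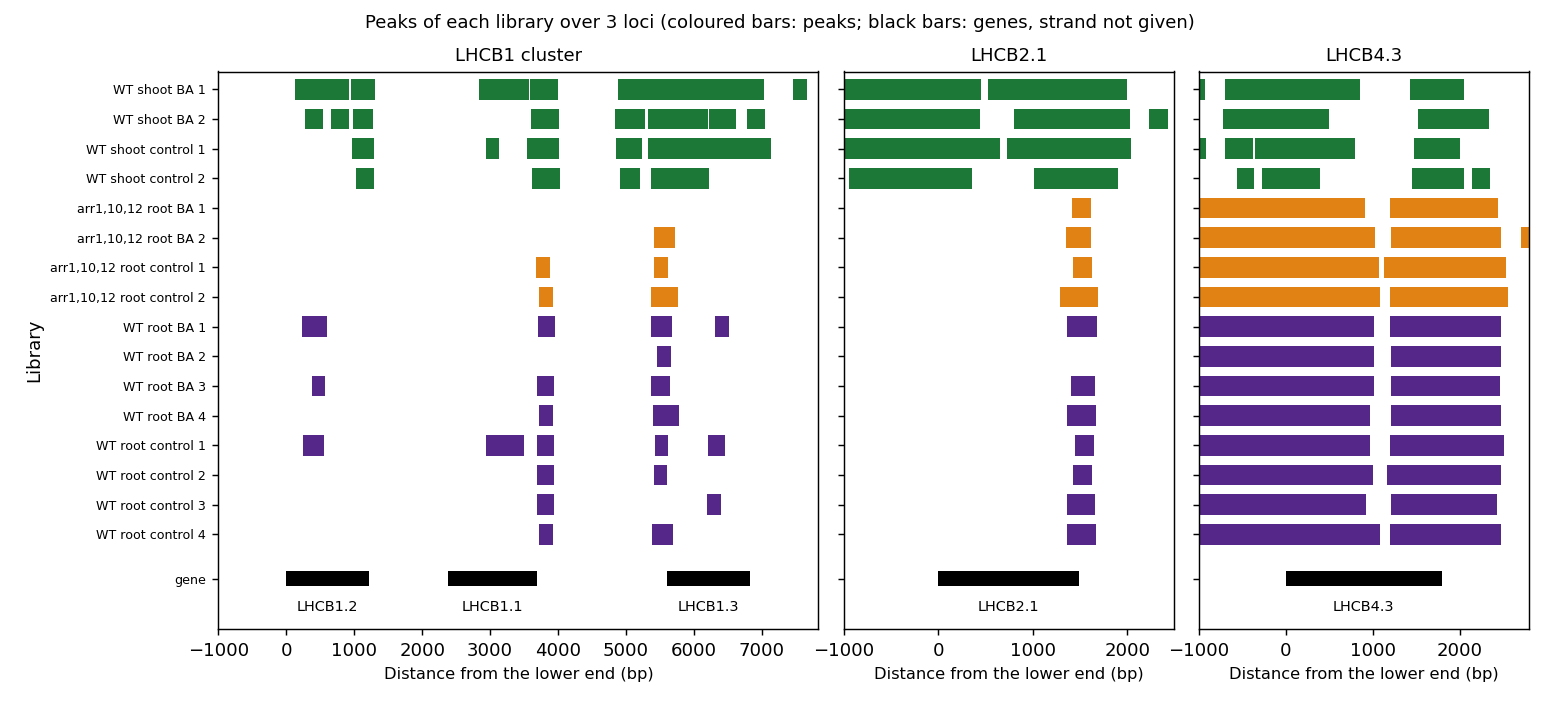
Peaks of each library (y axis, coloured bars) over the windows of LHCB1.2, LHCB1.1 and LHCB1.3, of LHCB2.1 and of LHCB4.3, by distance in bp from the lower-numbered end of the first gene (x axis); black bars are genes, whose strand is not shown. All 4 shoot libraries have peaks over the lower flank and start of the LHCB2.1 bar where no root library has any, and the shoot peaks at LHCB4.3 are narrower than the root peaks.

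The monomeric antenna genes LHCB4, LHCB5 (AT4G10340) and LHCB6 (AT1G15820), whose proteins connect the trimers to the photosystem II core, gave mixed results. LHCB4.3 (AT2G40100) had the highest mean of the LHCB genes over all libraries (78.5%). It had 59.0 and 53.4% in the BA shoots and 54.9 and 44.2% in the control shoots, against 82.7 to 88.8% (median 86.5%) in WT roots. All shoots were below all roots (-33.4 points, SE 2.24, limma adjusted p = 1.06e-07). LHCB4.1 (AT5G01530) was also lower in every shoot library, at 72.6, 69.6, 72.0 and 59.3%, against 72.8 to 82.3% (median 79.4%) in WT roots (-10.6 points, SE 2.44, limma adjusted p = 0.00320). Its call was lost after centring on the library mean (-5.32 points, adjusted p = 0.0613) and with BA libraries alone (-6.27 points, 0.208). The third copy, LHCB4.2 (AT3G08940), overlapped between tissues, at 48.3, 26.9, 40.1 and 25.3% in shoots and 25.8 to 46.5% (median 29.0%) in WT roots (3.15 points, SE 4.84, limma adjusted p = 0.617). LHCB5 averaged 39.6 ± 12.5% in shoots and 25.6 ± 4.14% in WT roots (SD, n = 4 and 8). The call (14.0 points, SE 4.02, limma adjusted p = 0.0124) was lost with pairing (0.0596), with gene bodies alone (0.0581), with control libraries alone (7.72 points, 0.303) and without shoot BA library 1 (0.0783) or shoot control library 1 (0.0727). LHCB6 averaged 61.5 ± 12.4% in shoots and 57.2 ± 9.60% in WT roots (SD, n = 4 and 8) and was not called (4.34 points, SE 5.67, limma adjusted p = 0.551), and its difference was -13.6 points with gene bodies alone (adjusted p = 0.22).

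Among the antenna genes of photosystem I, LHCA2 (AT3G61470) showed the clearest separation. It had 66.0 and 72.0% in the BA shoots and 75.2 and 53.8% in the control shoots, against 30.3 to 31.7% (median 31.4%) in WT roots. The 8 root values were nearly the same, and every shoot value was higher by more than 20 points (35.6 points, SE 3.04, limma adjusted p = 1.02e-06). LHCA3 (AT1G61520) had 69.4 and 43.4% in the BA shoots and 72.6 and 35.3% in the control shoots, against 22.3 to 32.6% (median 25.9%) in WT roots. The first library of each shoot group was much higher than the second, and all were above the roots (28.4 points, SE 6.05, limma adjusted p = 0.00194). LHCA4 (AT3G47470) averaged 58.5 ± 4.82% in shoots and 44.9 ± 5.65% in WT roots (SD, n = 4 and 8) and was higher in shoots (13.6 points, SE 3.31, limma adjusted p = 0.00464). Its call was lost with gene bodies alone (8.01 points, adjusted p = 0.304) and with control libraries alone (0.109). LHCA1 (AT3G54890), the LHCA gene with the highest mean over all libraries (52.2%), was not called (-4.24 points, SE 5.25, limma adjusted p = 0.529). LHCA5 (AT1G45474) and LHCA6 (AT1G19150) proteins link photosystem I to the chloroplast NDH complex. LHCA6 averaged 61.5 ± 4.50% in shoots and 46.3 ± 5.95% in WT roots (SD, n = 4 and 8) and was higher in shoots without overlap between groups (15.1 points, SE 3.55, limma adjusted p = 0.00365), with its call lost with control libraries alone (0.0536). LHCA5, at 16.6 to 23.8% in shoots and 12.3 to 21.0% in WT roots, had the lowest mean of the LHCA genes (17.4%) and was not called (3.64 points, SE 2.03, limma adjusted p = 0.158).

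The photosystem I subunit genes were higher in shoots in 8 of 12 cases and lower in none. PSAL (AT4G12800), whose protein helps dock light-harvesting complex II on photosystem I, had 81.3 and 76.5% in the BA shoots and 76.4 and 67.2% in the control shoots, against 29.7 to 43.1% (median 37.8%) in WT roots. The groups were far apart (38.1 points, SE 2.76, limma adjusted p = 2.20e-07). PSAF (AT1G31330), the plastocyanin-docking subunit, had 78.4 and 68.7% in the BA shoots and 84.0 and 70.6% in the control shoots, against 41.7 to 51.0% (median 44.6%) in WT roots, again without overlap (30.3 points, SE 2.99, limma adjusted p = 3.65e-06). PSAK (AT1G30380) and PSAG (AT1G55670) lie at the antenna side of the complex. PSAK, the PSA gene with the highest mean over all libraries (74.0%), had 80.3 to 82.3% in shoots and 61.6 to 76.9% in WT roots (10.1 points, SE 2.81, limma adjusted p = 0.0100), and its call was lost with pairing (0.0546), with control or BA libraries alone (0.0781 and 0.0621) and with 2 kb flanks (2.38 points, 0.516). PSAG averaged 56.4 ± 8.08% in shoots and 39.5 ± 1.60% in WT roots (SD, n = 4 and 8; 16.8 points, SE 2.80, limma adjusted p = 3.05e-04), and its call was lost with 2 kb flanks (7.75 points, 0.0538). Both were free of overlap between tissues. PSAN (AT5G64040), a lumenal subunit with the lowest mean of the PSA genes (9.58%), and PSAO (AT1G08380) were not called (4.51 and 5.84 points, adjusted p = 0.0727 and 0.251).

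PSAD, PSAE and PSAH are each encoded by a pair of copies, and the 2 copies of a pair differed between tissues by unequal amounts. PSAD and PSAE form the stromal docking site for ferredoxin. PSAE1 (AT4G28750) had 59.0 and 52.0% in the BA shoots and 57.1 and 40.9% in the control shoots, against 14.8 to 28.9% (median 21.7%) in WT roots (31.5 points, SE 4.17, limma adjusted p = 4.92e-05). PSAE2 (AT2G20260) stayed within 42.1 to 47.5% in shoots and 43.1 to 47.1% in WT roots (1.16 points, SE 1.54, limma adjusted p = 0.557), and its whole gene body lay under peaks on average in both tissues (100%). PSAD2 (AT1G03130) had 37.1 and 26.1% in the BA shoots and 20.3 and 29.8% in the control shoots, against 8.46 to 12.1% (median 11.2%) in WT roots (17.4 points, SE 2.14, limma adjusted p = 2.59e-05). PSAD1 (AT4G02770) was at 61.1 to 65.8% in shoots and 59.4 to 74.9% in WT roots and was not called (-1.49 points, SE 3.67, limma adjusted p = 0.761). PSAH binds mobile light-harvesting complex II. PSAH2 (AT1G52230) had 47.9 and 25.2% in the BA shoots and 58.2 and 23.3% in the control shoots, against 6.97 to 11.5% (median 8.73%) in WT roots (30.2 points, SE 5.24, limma adjusted p = 4.28e-04). PSAH1 (AT3G16140) passed narrowly (4.41 points, SE 1.71, limma adjusted p = 0.0492), and its call was lost with pairing (0.122), with gene bodies alone (0.148), with BA libraries alone (0.548), without both root libraries numbered 1 (0.0823) and in 11 of the 12 fits that left out 1 WT library. With 2 kb flanks its difference was -6.14 points (adjusted p = 0.0819). The excess of one copy over the other is given for these pairs as a description, with no test, because the pairs and their direction were picked after their values were seen. It was larger in shoots than in WT roots by 18.9 points for PSAD2 over PSAD1, by 30.3 points for PSAE1 over PSAE2 and by 25.8 points for PSAH2 over PSAH1. For the other pairs compared it was 36.5 points for LHCB4.2 over LHCB4.3, 6.04 points for PSBQ2 (AT4G05180) over PSBQ1 (AT4G21280) and 7.68 points for PSBO1 (AT5G66570) over PSBO2 (AT3G50820). The further copy LHCB4.1 was not paired. This excess was above all 8 roots in all 4 shoots for the PSAD, PSAE, PSAH and LHCB4 pairs. For the PSBQ and PSBO pairs it was so in only 1 of 4 shoots.

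**Figure D3:**
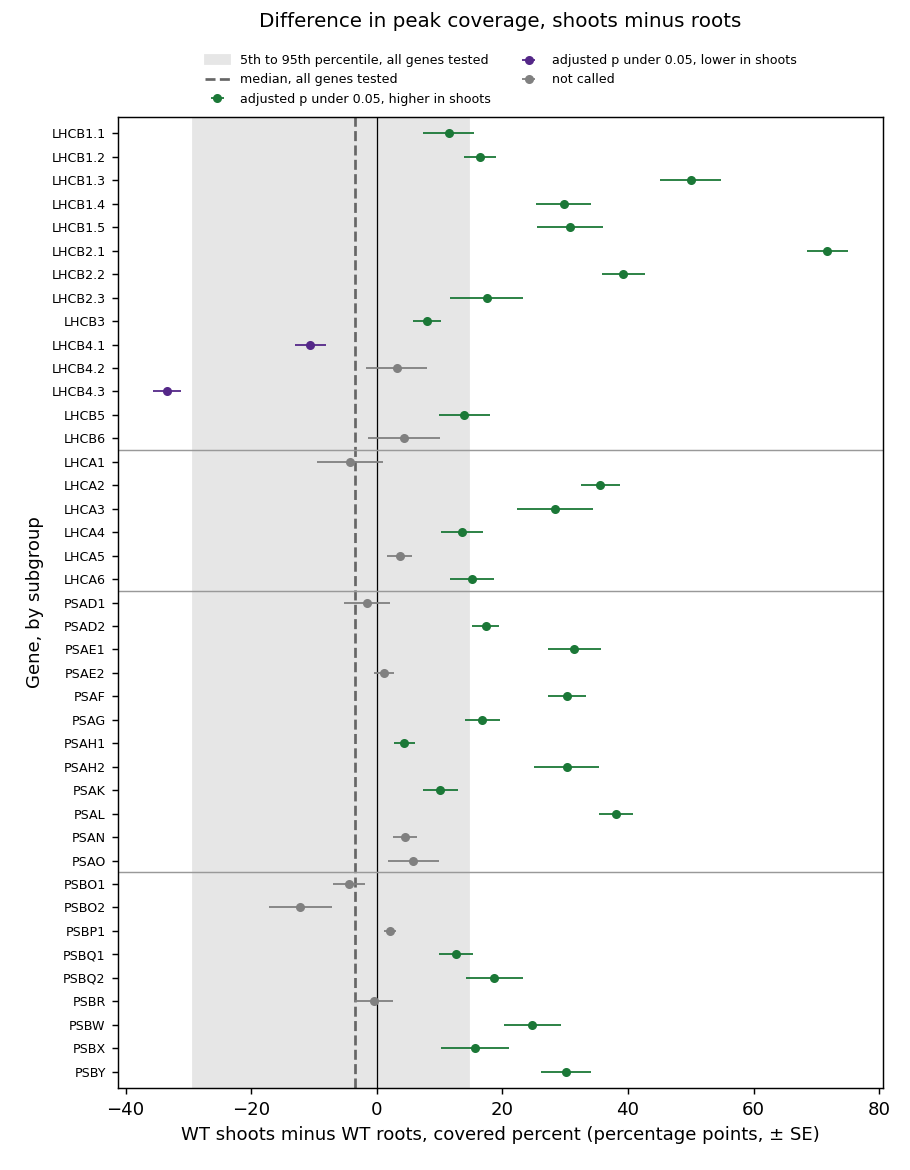
Difference in covered percent between WT shoots and WT roots (x axis, percentage points, positive where shoots are higher, bars ± SE from limma) for each gene (y axis); green and violet points passed the test in shoots, higher or lower, grey points did not, the grey band spans the 5th to 95th percentile of all genes tested and the dashed line marks their median. LHCB2.1 lies farthest to the right at 71.7 points, LHCB4.3 farthest to the left at -33.4 points, and the band runs from -29.3 to 14.7 points.

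Of the 9 photosystem II subunit genes, PSBY (AT1G67740), PSBW (AT2G30570), PSBX (AT2G06520), PSBQ1 and PSBQ2 were higher in shoots and the other 4 were not called. PSBY, a low-mass membrane subunit, had 52.5 and 50.9% in the BA shoots and 64.8 and 40.0% in the control shoots, against 16.8 to 27.5% (median 22.4%) in WT roots, without overlap (30.2 points, SE 3.94, limma adjusted p = 4.37e-05). PSBW, which stabilizes the photosystem II supercomplexes, had 56.5 and 37.9% in the BA shoots and 45.5 and 18.5% in the control shoots, against 12.4 to 21.5% (median 14.1%) in WT roots (24.7 points, SE 4.52, limma adjusted p = 6.41e-04). Shoot control library 2 lay inside the root range, and the call was lost with 2 kb flanks (5.84 points, adjusted p = 0.255) and with control libraries alone (0.0707). PSBX, another low-mass subunit, was at 80.1 to 89.1% in shoots and 51.1 to 82.5% (median 69.9%) in WT roots (15.7 points, SE 5.39, limma adjusted p = 0.0300), and its call was lost with pairing (0.125), by exact permutation (adjusted p = 0.051), with gene bodies alone (1.13 points, 0.633), with control or BA libraries alone (0.115 and 0.168), without either shoot library numbered 1 (0.106 and 0.104) or shoot BA library 2 (0.05), and without both root libraries numbered 1 (0.0581). Of the extrinsic proteins that shield the oxygen-evolving site, PSBQ1 (12.7 points, SE 2.73, limma adjusted p = 0.00209) and PSBQ2 (18.7 points, SE 4.53, limma adjusted p = 0.00449) were higher in shoots, and the call of PSBQ2 was lost with 2 kb flanks (6.34 points, adjusted p = 0.124) and with BA libraries alone (0.0545). PSBO1 and PSBO2, the manganese-stabilizing proteins, had differences of -4.47 and -12.1 points (limma adjusted p = 0.168 and 0.0596). PSBO2 was called lower with 2 kb flanks (-11.2 points, adjusted p = 0.0362) and without root control library 3 (-13.5 points, 0.0441). Without shoot BA library 1 its difference was -16.9 points, and without shoot control library 1 that of PSBO1 was -7.51 points. PSBO2 had the highest mean of the PSB genes over all libraries (76.4%), while PSBP1 (AT1G06680) had the lowest (10.6%) and was not called (2.16 points, SE 0.937, limma adjusted p = 0.0752). PSBR (AT1G79040), which helps to assemble the oxygen-evolving complex, was not called either (-0.409 points, SE 3.01, limma adjusted p = 0.922).

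Across the 41 genes, a shoot excess was present in the gene bodies and in the flanks. In the gene bodies alone the median covered percent was 51.1% in shoots and 20.3% in WT roots, against 10.6% and 14.0% over all genes tested. For the flanks alone the medians were 44.8% and 23.2%, against 28.5% and 37.8%. The LHCB genes had a median of 56.9% in the body in shoots and 13.6% in WT roots. Flanks can belong to neighbours, since 34 of the 41 windows held part of a gene outside the set. With gene bodies alone, 21 genes were higher in shoots and 2 were lower. PSBO1 then turned to higher in shoots (8.09 points, adjusted p = 0.0473), and PSAK to lower (-5.09 points, adjusted p = 0.223).

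By presence or absence of a peak, the tissues differed at few of the genes. A peak lay in the window in all 12 WT libraries for 35 of the 41 genes (74.4% of all genes), and in all 16 libraries for 34. No gene had a peak in all 4 shoots and none of the 8 WT roots (0.711% of all genes), and none showed the reverse (2.43%). The 7 genes that lacked a peak in at least 1 library were LHCB1.1, LHCB1.2, LHCB1.3, LHCB2.1, LHCB2.2, LHCB3 and PSAN. Of these, 6 are trimer genes of photosystem II, and each had a peak in every shoot library. PSAN lacked one in root control library 1 alone.

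Within the windows, stretches of at least 100 bp that lay under a peak in all 4 shoots and no WT root occurred in 21 of the 41 genes, against 6.29% of all genes. Stretches under a peak in all 8 WT roots and no shoot occurred in 4 (LHCB4.3, PSBO1, PSBO2 and PSBW), against 19.1%. The longest shoot-only stretch spanned 1311 bp at LHCB2.1 (TAIR10, chr2:1822042-1823352), from the lower flank into the gene body. PSAF held 680 bp in a flank (chr1:11216412-11217091), LHCB1.3 held 422 bp in the gene body (chr1:10478057-10478478), PSAL held 372 bp in a flank (chr4:7520290-7520661) and LHCA2 held 359 bp in the gene body (chr3:22747128-22747486). The root-only stretch at LHCB4.3 spanned 211 bp in the gene body (chr2:16746844-16747054). Of the 21 shoot-only stretches, 18 had no base under a peak in any arr1,10,12 root library either. The stretches were picked for lacking a peak in all 8 WT roots, so absence in other root libraries adds little. The matching share for the shoot-only stretches of all genes was not computed. Shoot-only bases made up a mean of 6.50% of the window over the 41 genes and 0.801% over all genes tested, and bases shared by all 12 WT libraries made up 21.4% and 16.4%.

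**Figure D4:**
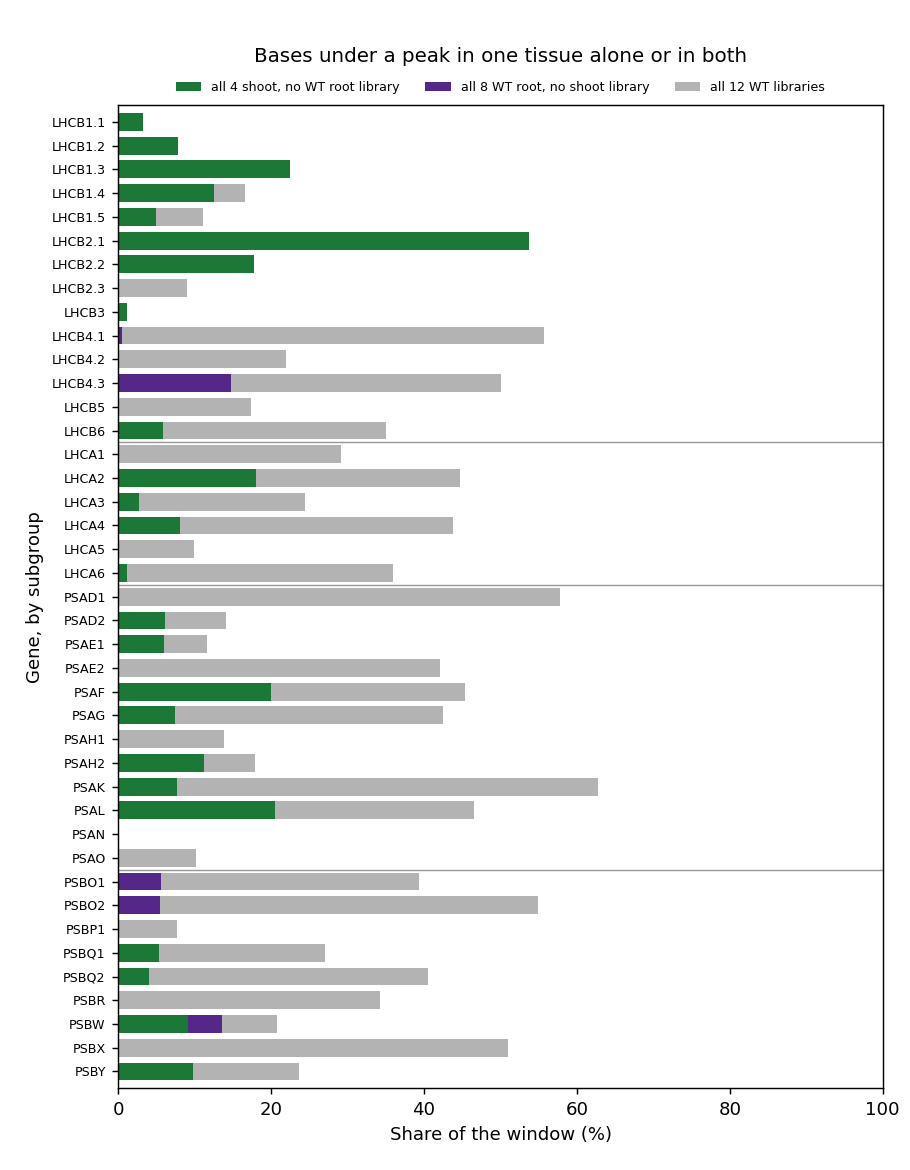
Share of each gene's window (x axis, percent) under a peak in all 4 WT shoots and no WT root (green), in all 8 WT roots and no shoot (violet) or in all 12 WT libraries (grey), by gene (y axis). The green share is largest at LHCB2.1, at 53.8% of the window, and the violet share at LHCB4.3, at 14.7%.

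Other genes of photosynthesis, taken from lists of known function, gave mixed counts in the same contrast. Of 13 Calvin cycle genes, 11 were higher in shoots and 1 was lower, with a median difference of 15.0 points. The small subunit genes of Rubisco, RBCS1B, RBCS2B and RBCS3B, had means of 64.9, 83.4 and 76.1% in shoots and no peak in any WT root library. They are adjacent near-identical copies, so single values are uncertain. Of 12 genes for photosynthetic electron transport and ATP synthase, 4 were higher (among them ATPC1, an ATP synthase subunit, by 33.9 points) and 1 was lower (FD2, a ferredoxin, -31.2 points), with a median of 1.03 points. Of 16 chlorophyll synthesis genes, 4 were higher (among them CAO, which makes chlorophyll b, by 15.4 points) and 3 lower (HEMA1, GSA1 and DVR), with a median of 0.154 points. Of 8 other light-harvesting-like and photosystem II genes, 2 were higher (PSBS, needed for energy dissipation, by 19.5 points, and LHCB7) and 2 were lower (ELIP1 and ELIP2). For comparison, the median difference was -12.2 points over the root identity genes and 5.41 points over the leaf identity genes. Of 7 broadly used genes, 4 were lower and none higher (median -4.07 points).

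With BA, none of the 41 genes passed the test in WT shoots (limma, 0 of 41, against 0.0935% of all genes tested). In shoots, 24 of the 41 differences were above 0, with a median of 2.94 points, against 0.51 points over all genes tested. At an unadjusted p under 0.05 stood 1 gene, LHCB1.2 (2.44% of the 41, against 2.99% of all genes tested). It had 35.4 and 26.0% in BA shoots and 9.74 and 8.01% in control shoots. Both BA libraries were higher than both controls, by 21.8 points on average (SE 4.16, limma adjusted p = 0.121), and the call depended on the setting: the adjusted p was 0.0341 without BA library 2, 0.181 to 0.537 in the other fits with 1 library left out, 0.0508 with the replicate number as a block, 0.0748 with gene bodies alone, 0.0877 after centring, 0.899 with 2 kb flanks (15.2 points) and 1 on the arcsine square root scale. The subgroups differed in sign. All 14 LHCB differences were above 0, with a range of 2.07 to 21.8 points and a median of 7.29 points, and so were 5 of 6 LHCA differences (median 2.69 points). Of the PSA differences 4 of 12 were above 0 (median -1.70 points), and of the PSB differences 1 of 9 (median -2.43 points). Over all genes tested 58.8% were above 0. Above 0 were also 10 of 12 electron transport and ATP synthase genes (median 2.9 points), 10 of 13 Calvin cycle genes (2.41) and 6 of 7 broadly used genes (3.24). Of 8 other light-harvesting-like and photosystem II genes, 2 were above 0 (-1.35). The 14 LHCB differences are not independent, since 5 of these genes have overlapping windows and values of near-identical copies are uncertain. With each library centred on its mean, 14 of 14 LHCB differences were still above 0 (median 6.28 points, against -0.503 points over all genes tested). The LHCB mean was 54.1 and 42.2% in the BA shoots and 47.1 and 32.0% in the control shoots, so that BA library 2 lay below control library 1. Control library 2, which had the fewest peaks of all libraries, was the lowest shoot library for every subgroup mean.

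BA exceeded control within both same-numbered shoot pairs for 15 of the 41 genes, 10 of them LHCB genes (29.4% of all genes tested), and was below it in both for 7 genes, 5 PSA and 2 PSB (13.5%). PSBW had 56.5 and 37.9% in BA shoots and 45.5 and 18.5% in control shoots. Its difference of 15.2 points (SE 7.38, limma adjusted p = 1) came with overlapping groups, and it ran from 1.71 to 28.7 points when 1 library was left out. LHCB1.3 had 72.8 and 62.1% in BA shoots and 68.3 and 35.8% in control shoots (15.4 points, SE 7.91), and its difference ran from -0.82 to 31.7 points when 1 library was left out. PSAD2 had 37.1 and 26.1% in BA shoots and 20.3 and 29.8% in control shoots (6.56 points, SE 3.49; 1.1 to 12.0 points with 1 library left out). PSAH1 had 20.7 and 18.9% in BA shoots and 31.2 and 20.6% in control shoots (-6.06 points, SE 2.79; -11.4 to -0.762 points with 1 library left out). None of these passed the test, and 2 libraries a group limit what it can show.

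**Figure D5:**
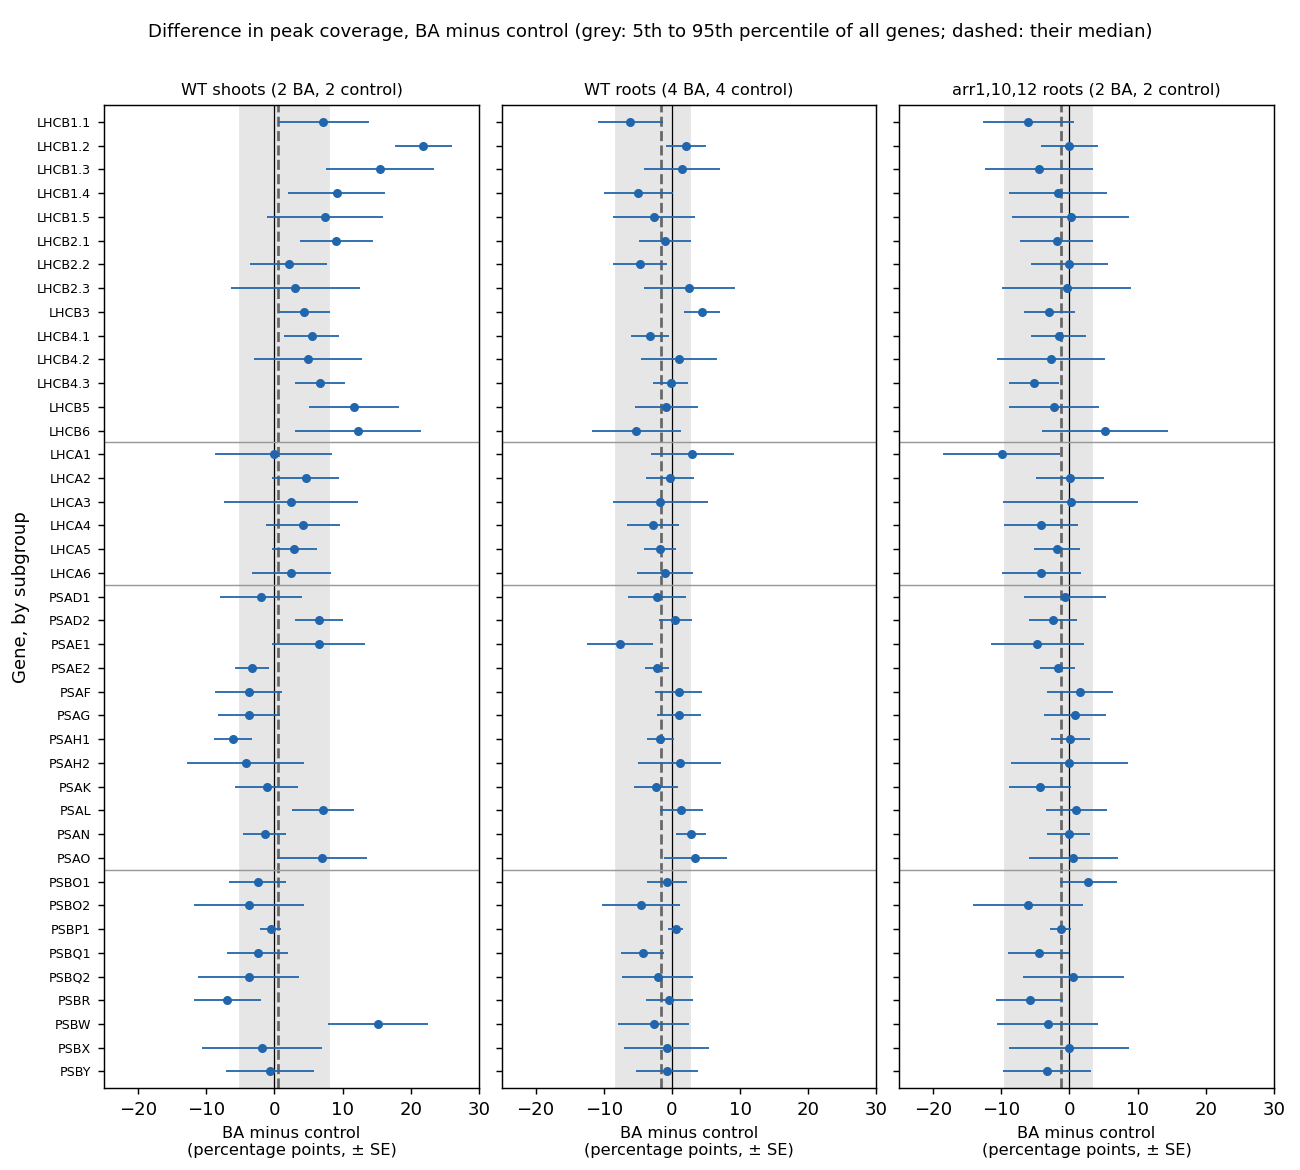
Difference in covered percent between BA and control (x axis, percentage points, bars ± SE from limma) for each gene (y axis) in WT shoots, WT roots and arr1,10,12 roots; grey bands span the 5th to 95th percentile of all genes tested and dashed lines mark their median. All 14 LHCB points lie above 0 in WT shoots, with LHCB1.2 highest at 21.8 points, and in WT roots the 41 points lie between -7.62 and 4.34 points.

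In WT roots, with 4 libraries a group, none of the 41 genes passed the test for BA either (limma, 0 of 41, against 0.0122% of all genes tested). None had an unadjusted limma p under 0.05 (5.43% of all genes tested). Exact permutation called none, but it could not decide the question. Its 70 splits allow no p below 0.0286, which passes adjustment over 24610 genes only if most of them reach it. The differences ran from -7.62 to 4.34 points, with a median of -0.80 points, against -1.66 points over all genes tested. PSAE1 had the most negative one, with 22.3, 15.0, 15.9 and 14.8% in BA roots and 23.7, 24.7, 21.1 and 28.9% in control roots. The groups overlapped (-7.62 points, SE 4.82, limma adjusted p = 0.873). LHCB3 had the highest, with 13.3, 5.88, 5.88 and 5.88% in BA roots and 5.88, 0, 7.67 and 0% in control roots (4.34 points, SE 2.64, limma adjusted p = 0.873). PSBQ1, LHCB1.1 and PSAN followed in the order of p, with differences of -4.3, -6.10 and 2.82 points. PSAE2 had 43.6, 43.1, 43.2 and 43.2% in BA roots and 47.1, 44.8, 45.3 and 44.8% in control roots. Its groups did not overlap, but the difference was small (-2.19 points, SE 1.78, limma adjusted p = 0.89). Its unadjusted permutation p was 0.0286, and 761 of 24610 genes tested had one under 0.05. In no gene was BA above control in all 4 same-numbered root pairs (1.5% of all genes tested), and in 7 it was below in all 4 (LHCB6, PSAD1, PSAE1, PSAE2, PSAH1, PSBQ1 and PSBW; 19.5%).

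The response to BA was not shown to differ between shoots and roots for any of the 41 genes (limma interaction, 0 of 41, against 0.065% of all genes tested). At an unadjusted limma p under 0.05 stood 1 of 41, or 2.44%, against 3.75% of all genes tested. Exact permutation called none, but it could not decide the question. Its 420 splits allow no p below 0.00476, which passes adjustment over 24610 genes only if many reach it. Only 1117 genes had a permutation p under 0.05. The gene nearest to the threshold was LHCB1.2, whose BA difference was larger in shoots than in WT roots by 19.8 points (SE 5.09, limma adjusted p = 0.83). PSBW, LHCB4.1, PSAE1 and LHCB1.1 followed in the order of p, with 17.9, 8.64, 14.1 and 13.3 points. For all 14 LHCB genes the interaction was above 0 (median 10.1 points), against a median of 2.52 points over all genes tested, of which 76.5% were above 0. It was also above 0 for all 7 broadly used genes (median 6.31 points) and all 8 leaf identity genes tested (1.2 points). Of 10 type-A response regulators, 5 were above 0 (1.52 points). After centring, 12 of the 14 LHCB genes were above 0 (median 6.99 points), against a median of -0.571 points over all genes.

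In arr1,10,12 roots, none of the 41 genes passed the test for BA (limma, 0 of 41, against 0.0% of all genes tested), and none had an unadjusted p under 0.05, against 2.32% of all genes tested. The differences ran from -9.91 to 5.25 points, with a median of -1.66 points, against -1.23 points over all genes. LHCB4.3 had the smallest p, with 83.3 and 88.8% in BA roots and 91.7 and 90.8% in control roots of the mutant (-5.16 points, SE 3.65, limma adjusted p = 1). LHCA1 had 50.9 and 55.9% in BA roots and 66.5 and 60.1% in control roots (-9.91 points, SE 8.57). PSBR, PSBQ1 and PSAK differed by -5.82, -4.49 and -4.29 points. BA was above control in both mutant pairs for 4 genes (10.6% of all genes tested) and below in both for 11 (40.4%).

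Between genotypes, none of the 41 genes passed the test in arr1,10,12 roots against WT roots (limma, 0 of 41, against 0.402% of all genes tested). At an unadjusted limma p under 0.05 stood 2 of 41, or 4.88%, against 10.6% of all genes tested. Exact permutation called none of all genes tested, but its 495 splits allow no p below 0.00202. Such a p passes adjustment over 24610 genes only if many reach it. The median difference was 0.206 points over the 41 genes and -0.488 points over all genes tested. PSBR had 49.2, 50.4, 50.5 and 60.7% in the 4 arr1,10,12 roots, against 39.4 to 50.6% (median 39.8%) in the 8 WT roots. Its difference was 10.6 points (SE 3.01, limma adjusted p = 0.186), and the groups overlapped through WT root control library 1. LHCB4.1 had 84.4, 84.0, 85.6 and 85.9% in arr1,10,12 roots, against 72.8 to 82.3% (median 79.4%) in WT roots. All mutant values were above all WT values, but the difference did not pass the test (5.97 points, SE 2.44, limma adjusted p = 0.389). The trimer genes LHCB1.2 and LHCB2.2 had no peak in any of the 4 arr1,10,12 roots, against 3 of 8 WT roots with a peak for each. LHCB3 had a peak in 1 of 4 arr1,10,12 roots and in 6 of 8 WT roots, LHCB1.1 in 2 of 4 and 7 of 8, and LHCB1.3 in 3 of 4 and 8 of 8. LHCB2.1 and PSAN went the other way, with a peak in 4 of 4 arr1,10,12 roots and 7 of 8 WT roots. The trimer genes LHCB1.4, LHCB1.5 and LHCB2.3 had a peak in every library. These counts were not tested, and the share of all genes with such a pattern was not computed. The differences of LHCB1.1, LHCB1.2 and LHCB3 were -5.33, -3.37 and -4.09 points. The 2 WT root libraries numbered 1 held the 2 highest WT values for LHCB1.2 and LHCB1.5, and control library 1 held the highest for LHCB1.1. Without both libraries still none of the 41 genes was called.

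The authors' deposited tables of differential regions, a WT root list and a WT shoot list that give neither contrast, direction nor p, touched 5 of the 41 genes. The shoot list overlapped the windows of 3 genes (2.4% of all genes). One 238 bp region (chr2:14524223-14524460) lies in the flanks of both LHCB1.4 and LHCB1.5 and was covered for 76.1 and 81.5% of its length in BA shoots and for 75.6 and 51.7% in control shoots. In WT roots it was covered in control library 1 alone, for 31.1%. At LHCB2.1, a 358 bp region in the flank (chr2:1822303-1822660) was fully under a peak in all 4 shoots and in none of the 12 root libraries. A second region there, of 258 bp in the gene body (chr2:1824323-1824580), was also fully covered in every shoot, and for 0 to 89.5% in WT roots. The root list overlapped the windows of 2 genes (2.18% of all genes), with a 238 bp region in the body of PSAE2 (chr2:8737543-8737780) and a 198 bp region in a flank of PSAF (chr1:11213923-11214120). Both were fully under a peak in all 12 root libraries, so peak presence did not separate BA from control at either. The LHCB2.1 regions likewise did not separate BA from control in shoots.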

How the data were processed

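Peaks of 16 ATAC-seq libraries were analysed, and the other 12 of 28 samples, from RNA-seq, were not used here. The tools named in the submitters' processing notes are HOMER 4.9.2, deepTools 2.5.2, SAMtools 1.5 and Bowtie 1.2.0, with TAIR10 as the build, and peak caller settings are not given in the sources used here. The deposited files are 1 peak list per library and 2 lists of differential regions, with coordinates only. Gene positions came from a RefSeq table (TAIR10.1, no strand), whose offset to the peaks was within 100 bp in 59 of 59 bins; printed coordinates are the files' own. The covered percent was computed for 27444 genes and tested with limma 3.58.1 (trend, robust; R 4.3.3) on 6 group means, over the 24610 genes with a peak in at least 2 of 16 libraries and values not all equal; all 41 genes passed. P-values were adjusted by Benjamini-Hochberg over all genes tested, threshold 0.05. On simulated data with 200 genes shifted by 20 points, 72.5% were recovered for shoots against roots and 56% for BA in WT roots. The shifted genes had neither a low nor a high mean covered percent, and the noise was independent between libraries. Recovery may therefore differ for genes of low coverage such as LHCB3, and the other contrasts were not simulated. In WT roots same-numbered BA and control libraries deviated together in all 4 pairs (r = 0.31 to 0.465). The main tests used no pairing, and an alternative fit took same-numbered libraries as pairs (replicate block). Named genes were the 10 with the largest difference in each direction per contrast, or the 5 with the smallest p, with the extremes of each subgroup, genes with a differential region and genes whose windows overlap. The genes and lists were chosen with earlier results of these data known.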

Additional observations from a re-analysis of the deposited data

Results flagged for a closer look

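Within the 82 groups of 4 root libraries (41 genes, BA and control), 13 values stood apart from the other 3 by Dixon's criterion. For independent, normally spread values chance sets about 1 in 20 groups apart. That rate does not hold here, since LHCB1 windows overlap and flagged groups of LHCB1.2, LHCB2.2 and LHCB3 had the other 3 values equal. The matching share over all genes was not computed. Of these, 11 were the highest value of a library numbered 1. In root control library 1 they were LHCB1.1 at 24.4% (next 7.60%), LHCB1.2 at 9.31% (the others at 0), LHCB1.4 at 25.4% (next 4.44%), LHCB1.5 at 35.9% (next 9.95%), LHCB4.2 at 39.7% (next 29.1%) and PSBR at 50.6% (next 39.6%). In root BA library 1 they were LHCB1.5 at 21.3% (next 10.4%), LHCB2.2 at 6.17% (the others at 0), LHCB3 at 13.3% (next 5.88%), LHCB4.2 at 46.5% (next 29.2%) and PSAE1 at 22.3% (next 15.9%). The other 2 were the lowest value of PSAG, 38.2% in root BA library 4 (next 40.5%), and the highest value of PSBO1, 59.4% in root BA library 2 (next 55.6%). Without both libraries numbered 1, 26 of the 41 genes were higher in shoots than in WT roots and 2 were lower, against 27 and 2 with them.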

How the results depend on the processing

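Peak lists give no depth, so counting error could not be set against any difference, and p-values rest on the spread between libraries. With 1 library left out, 21 to 28 of the 41 genes were higher in shoots than in WT roots and 2 to 3 lower (9943 to 11768 of all genes called). Control libraries alone gave 17 higher and BA libraries alone 1 lower (7146 of all genes). The lower count was 4 with 2 kb flanks and 1 after centring. Gene bodies alone called 6405 of all genes. With the replicate block, 20 were higher and 2 lower. Of the 29 genes called in that comparison, 15 kept the call in every alternative and 14 lost it in at least 1, and of the 12 not called, 8 were called in at least 1 (5 of them, LHCA5, PSAE2, PSAN, PSAO and PSBP1, after centring). Differences that were called in either setting and changed sign were PSAH1 (-6.14 points, 2 kb flanks), PSAK (-5.09, bodies) and PSBO1 (8.09, bodies); the cause was not tested. Differences that changed sign without a call in either setting were those of LHCA1, LHCB4.2, LHCB6, PSAD1, PSAE2, PSBO1 and PSBR. The count of the 41 genes called for BA or genotype stayed 0 in every alternative and every fit with 1 library left out, apart from 1 (LHCB1.2) without shoot BA library 2. Counts over all genes moved more. For BA in WT roots they were 3 at first, 1 (bodies), 5 (centred), 12 (without both libraries numbered 1, chosen after seeing the data), 0 (exact permutation) and 2 to 9 (1 library left out). The permutation count for BA in WT roots was all but fixed at 0, since its smallest possible p was 0.0286. For the interaction and genotype the smallest possible permutation p was 0.00476 and 0.00202, which pass adjustment only if many genes reach them. For BA in shoots, 23 became 58 (bodies), 7 (centred), 52 (arcsine scale), 0 (replicate block) and 57 to 132. For BA in arr1,10,12 roots, 0 became 8 (bodies), 1 (replicate block) and 1 to 6. For genotype, 99 became 28 (bodies), 150 (2 kb), 6 (replicate block), 10 (control alone), 23 (BA alone), 0 (exact permutation) and 32 to 151. For the interaction, 16 became 8 (2 kb), 0 (centred, replicate block, without both libraries numbered 1, or exact permutation) and 0 to 91. In shoots and arr1,10,12 roots 2 pairs share only a number (r = 0.402 and 0.506). With peaks of at least 300 bp, 2 genes had a peak in all shoots and no WT root, against 0. With bodies alone, 1 gene met each list of differential regions. A planned window upstream of the transcription start was not run, since the gene table has no strand.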
